A study of Homo sapiens with 6 samples.

Results

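Aminoacyl-tRNA synthetases join each amino acid to its tRNA. A set of 36 human genes of this family was followed in HCT116 cells, a colorectal carcinoma line, with or without a short hairpin RNA (shRNA) against PLEK2, which codes for the pleckstrin-family protein pleckstrin-2. The 36 genes were taken by symbol from a list of 20 cytosolic and 16 mitochondrial enzymes, and all 36 were among the 17047 genes of the deposited table. No measured value entered this rule, but the list was written with earlier results of these data known. The control group was 3 libraries of HCT116 cells with a control shRNA (shNC), and the knockdown group was 3 libraries of HCT116 cells with PLEK2 shRNA. Both groups carried a retroviral shRNA vector, with no drug treatment or further genotype given. The knockdown rested on a single shRNA sequence in a single cell line, and nothing says that the replicates came from separate cultures, so p-values measure the spread between these libraries, which may be technical. The RNA was poly(A)-selected mRNA, sequenced as single reads of 50 nt, so the synthetase transcripts were measured and not their tRNA substrates, proteins or activity.

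The family falls into separate nuclear-encoded sets. The cytosolic enzymes charge tRNAs for the ribosomes of the cytoplasm, and those with a symbol ending in the mitochondrial suffix charge tRNAs inside mitochondria. GARS and KARS serve both compartments, EPRS charges tRNAs with glutamate and with proline, and the phenylalanine enzyme of the cytosol is built from an alpha subunit (FARSA) and a beta subunit (FARSB). Several cytosolic enzymes sit together in the multisynthetase complex on the scaffold proteins AIMP1, AIMP2 and EEF1E1 (AIMP3). When amino acids run short, uncharged tRNAs activate the kinase GCN2 (gene EIF2AK4), the translation factor eIF2 is phosphorylated, and the transcription factor ATF4 raises many cytosolic synthetase genes along with amino acid transporters and biosynthetic enzymes.

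The promoter sequences below show the element through which ATF4 and its C/EBP partners act, since that response is the best known shared control of these genes. The letters TGATGNAA were searched on both strands of the RefSeq promoter windows (GRCh38.p14, 250 bases before to 50 bases after each start). Windows were found for 30 of the 36 genes, and those of DARS, LARS, VARS, YARS, AARS2 and VARS2 were not used here. The letters stood in the windows of 8 of these 30 genes (26.7%), against 4.46% of all genes and 3.62% of all windows. They stood in 7 of 10 cytosolic genes listed as induced by ATF4, in 0 of 6 other cytosolic genes and in 1 of 14 mitochondrial genes. The narrower form TGATGCAA, contained in the first, stood in 6 of the 30 genes against 1.08% of all genes. Each line gives 28 bases in the direction of the gene, with the matched letters in capitals. A match on the opposite strand reads TTGCATCA or TTTCATCA.
AARS (chr16:70289676-70289703, minus strand): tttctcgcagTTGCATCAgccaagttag
CARS (chr11:3057408-3057435, minus strand): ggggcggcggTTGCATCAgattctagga
GARS (chr7:30594835-30594862, plus strand): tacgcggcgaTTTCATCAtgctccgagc
IARS (chr9:92293693-92293720, minus strand): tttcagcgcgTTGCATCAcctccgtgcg
MARS (chr12:57488054-57488081, plus strand): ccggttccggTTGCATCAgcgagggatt
NARS (chr18:57621805-57621832, minus strand): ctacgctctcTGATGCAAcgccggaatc
TARS (chr5:33440957-33440984, plus strand): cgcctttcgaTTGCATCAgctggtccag
YARS2 (chr12:32756077-32756104, minus strand): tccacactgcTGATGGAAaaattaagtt
The match is a description of the letters and not a measured binding site. The cytosolic and mitochondrial histidine genes HARS and HARS2 are a further case of shared promoter sequence, since they start 84 bases apart on opposite strands. The bases between their starts (plus strand, chr5:140691371-140691454, 59.5% G or C) are printed to show how little separates these genes. The values of both are given below, and the difference between them was not tested.
HARS to HARS2: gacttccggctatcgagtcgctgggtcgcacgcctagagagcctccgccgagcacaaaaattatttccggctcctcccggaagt

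The 6 libraries held 14377532 to 15602732 estimated counts, and 12959 genes were kept for testing, all 36 synthetases among them. The lowest estimated count of any synthetase in any library was 122. The least abundant genes were measured least closely, with a blocked standard error of 0.12 for FARS2 and WARS2 against a median of 0.06 over the family. The targeted gene PLEK2 stood at 86.0, 72.6 and 82.9 CPM (counts scaled to the total of each library) in shNC and at 16, 32.2 and 34.9 CPM in PLEK2 shRNA. PLEK2 differed by a log2 fold change of -1.54 (SE 0.24), with adjusted p = 0.684 in edgeR's quasi-likelihood test without a replicate term and 0.00106 with the replicate number as a block (log2 fold change -1.57). The groups did not overlap, and the knockdown was deepest in replicate 1. Markers of colorectal epithelium were expressed for 7 of 7 genes, with a summed level of 5163 to 5937 FPKM in shNC and 4318 to 5494 FPKM in PLEK2 shRNA. Of 9 markers of fibroblasts, leukocytes and endothelium 7 were measured, 6 of them under 1 FPKM in every library. The exception was COL1A1 at 4.26 to 5.94 FPKM, and the summed level was 4.89 to 6.14 FPKM in shNC and 4.56 to 5.11 FPKM in PLEK2 shRNA.

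Levels were first compared between genes on the deposited length-scaled values, read as FPKM (fragments scaled to transcript length and library total). The cytosolic synthetases lay far above the mitochondrial ones, with a median of the genes' mean levels of 80.0 FPKM over the 20 cytosolic genes and 12.3 FPKM over the 16 mitochondrial genes, against 10.2 FPKM over all genes tested. The 20 cytosolic genes ran from 33.7 FPKM for DARS, the aspartate enzyme, to 130 FPKM for KARS, the lysine enzyme. The 16 mitochondrial genes ran from 3.69 FPKM for WARS2, the tryptophan enzyme, to 43.0 FPKM for IARS2, the isoleucine enzyme.

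KARS stood at 135, 120 and 123 FPKM in shNC and at 143, 128 and 130 FPKM in PLEK2 shRNA. GARS, the glycine enzyme, stood at 132, 118 and 116 FPKM in shNC and at 124, 130 and 124 FPKM in PLEK2 shRNA. FARSA stood at 98.2, 123 and 120 FPKM in shNC and at 94.6, 116 and 112 FPKM in PLEK2 shRNA. The levels of these top 3 genes overlapped over the libraries, so their order was within their spread, and 2 of the 3 are the enzymes that serve both compartments. At the other end, WARS2 stood at 3.54, 3.90 and 3.70 FPKM in shNC and at 3.80, 3.95 and 3.25 FPKM in PLEK2 shRNA. FARS2, the mitochondrial phenylalanine enzyme, stood at 5.35, 4.76 and 4.59 FPKM in shNC and at 4.78, 4.27 and 4.82 FPKM in PLEK2 shRNA. AARS2, the mitochondrial alanine enzyme, stood at 5.41, 6.94 and 6.29 FPKM in shNC and at 5.61, 6.15 and 6.18 FPKM in PLEK2 shRNA. WARS2 was below both others in every library, and FARS2 was below AARS2 in every library. Among all genes of the table KARS stood at the 96.7th percentile of FPKM and WARS2 at the 44.4th.

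**Figure D1:**
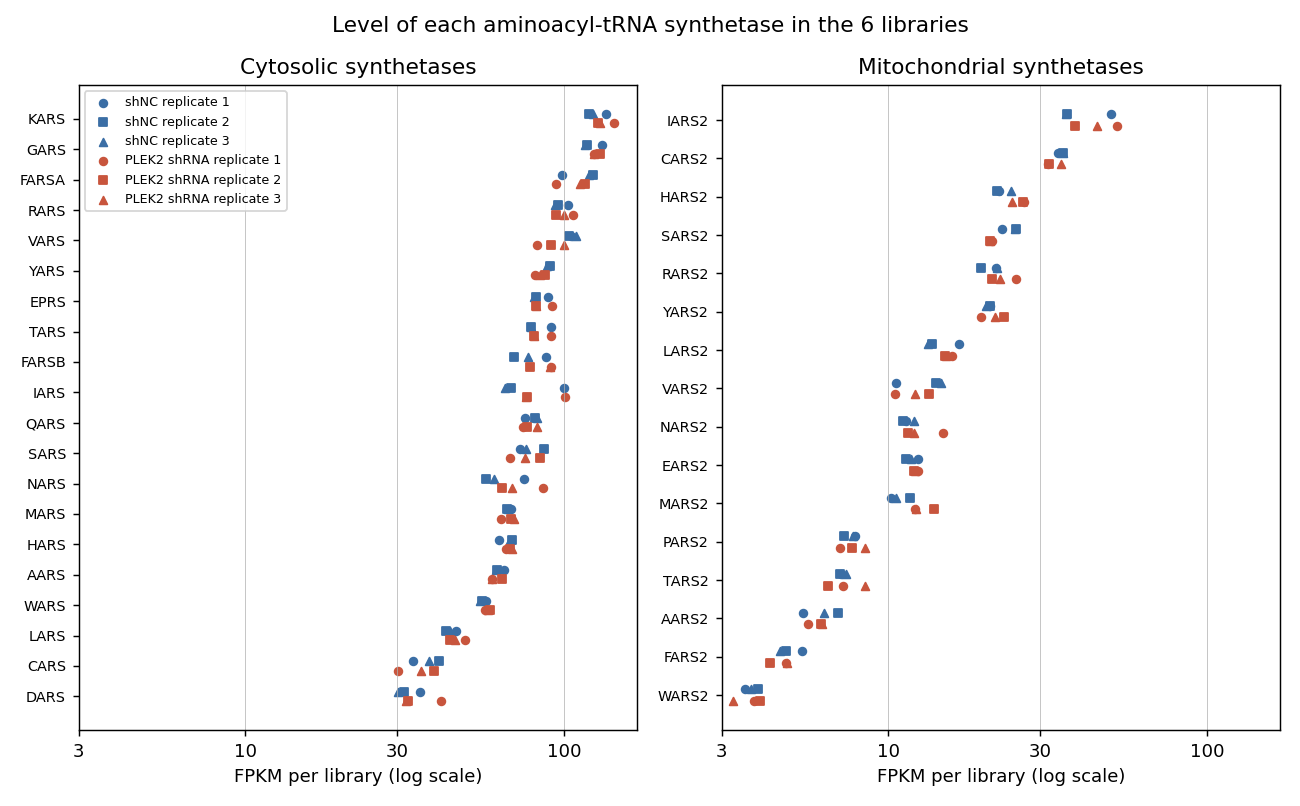
FPKM (log axis) of each of the 36 synthetases, cytosolic genes on the left and mitochondrial genes on the right, ordered by mean, with a point for each of the 6 libraries. Mean levels run from 33.7 to 130 FPKM on the left and from 3.69 to 43.0 FPKM on the right.

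For each amino acid with an enzyme in both compartments, the ratio of the cytosolic to the mitochondrial level was taken within each library, giving 17 pairs. The cytosolic gene was the higher in every library in 16 of the 17 pairs. The cysteine pair was the exception, with a CARS to CARS2 ratio of 0.951 to 1.23. The isoleucine pair came next with an IARS to IARS2 ratio of 1.69 to 2.01, and the widest ratio was that of FARSA to FARS2 at 18.4 to 27.1. The summed level of the 20 cytosolic genes was 1621, 1540 and 1532 FPKM in shNC and 1598, 1560 and 1574 FPKM in PLEK2 shRNA. The summed level of the 16 mitochondrial genes was 262, 251 and 255 FPKM in shNC and 270, 257 and 264 FPKM in PLEK2 shRNA. Both sums overlapped between the groups, and in the counts the cytosolic genes made up 0.410% to 0.444% of a library and the mitochondrial genes 0.0664% to 0.0726%.

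The main question was whether knockdown of PLEK2 moved the synthetase transcripts. None of the 36 genes passed the test between PLEK2 shRNA and shNC. The log2 fold changes lay between -0.25 and 0.20, with a median of 0.001 over the cytosolic and 0.003 over the mitochondrial genes, against -0.002 over all genes tested. At adjusted p under 0.05 in edgeR's quasi-likelihood test without a block, 0 of 36 synthetases were called beside 0% of all genes (0 of 12959), and the smallest adjusted p of a synthetase was 0.968. DESeq2's Wald test also called 0 of the 36, and 12 genes in all. At an unadjusted p under 0.05 the edgeR test picked 0 synthetases that were higher, beside 0.864% of all genes, and 2 that were lower (VARS and SARS2, 5.56% of the 36), beside 2.22% of all genes.

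The shNC and PLEK2 shRNA libraries of a given replicate number varied alike, so the test was also made with that number as a block. The block lowered the standard error of all 36 fold changes, from a median of 0.10 to 0.06. With it, 0 of 36 synthetases had an adjusted p under 0.05, beside 0.849% of all genes (110 genes), and the smallest adjusted p was 0.0695. At an unadjusted p under 0.05 there were 3 higher (NARS, HARS2 and MARS2, 8.33%), beside 7.89% of all genes, and 4 lower (CARS, FARSA, VARS and SARS2, 11.1%), beside 10.4% of all genes. These shares were near those of all genes in both directions. Scaling by library totals turned that split into 6 higher and 2 lower, beside 19.9% of all genes in both directions together. The median log2 fold change over all genes with the block then went from -0.002 to 0.030, a shift shared by all genes. The adjusted calls turned on single replicates. Without replicate 3 in both groups VARS had an adjusted p of 0.0121 in edgeR with the block, beside 2.29% of all genes called. Without replicate 1 SARS2 had 0.0276 and IARS 0.0404 in that test, beside 4.06% of all genes called.

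The size of any change was bounded as well. The 95% interval of the log2 fold change lay within a 1.5-fold change in either direction for all 36 genes, with or without the block, within 1.25-fold for 19 genes without and 32 with it, and within 1.2-fold for 13 without and 27 with it. The 4 genes whose blocked interval reached beyond 1.25-fold were VARS, FARS2, MARS2 and SARS2. The widest bound was a log2 change of 0.48 for IARS without the block and 0.38 in size for SARS2 with it.

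**Figure D2:**
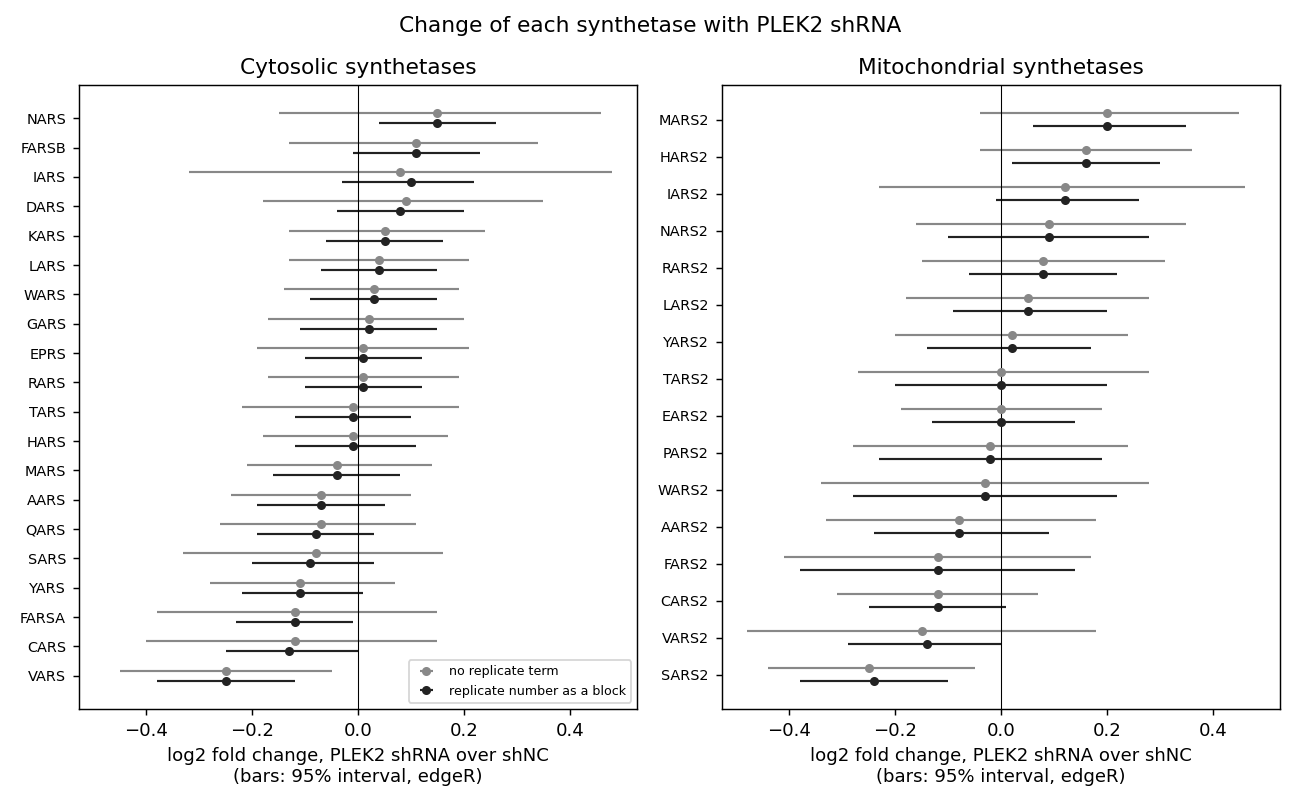
Log2 fold change of PLEK2 shRNA over shNC for each of the 36 synthetases (x axis), with the 95% interval of edgeR's test without and with the replicate block, for cytosolic and mitochondrial genes. All estimates lie between -0.25 and 0.20. The blocked intervals of VARS, SARS2 and FARSA lie below 0, that of CARS ends at 0.00, and those of NARS, MARS2 and HARS2 lie above 0.

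VARS and SARS2 had the smallest p-values. VARS (gene ID 7407), the cytosolic valine enzyme, stood at 442, 432 and 446 CPM in shNC and at 331, 375 and 405 CPM in PLEK2 shRNA. All 3 PLEK2 shRNA libraries lay below all 3 shNC libraries, and the PLEK2 shRNA library of replicate 1 was the lowest. The means were 440 ± 7.42 and 370 ± 37.0 CPM (SD, n = 3), a log2 fold change of -0.25 (SE 0.09, 95% interval -0.45 to -0.05). With the block the interval narrowed to -0.38 to -0.12, with an adjusted p of 0.0695 from edgeR. SARS2 (gene ID 54938), the mitochondrial serine enzyme, stood at 44.3, 48.9 and 48.2 CPM in shNC and at 39.5, 40.1 and 39.7 CPM in PLEK2 shRNA. Here too the groups did not overlap, and the PLEK2 shRNA libraries lay close together. The means were 47.1 ± 2.47 and 39.8 ± 0.301 CPM (SD, n = 3), a log2 fold change of -0.25 (SE 0.09, 95% interval -0.44 to -0.05), with an adjusted p of 0.0898 from edgeR with the block.

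A further gene without overlap was CARS2, the mitochondrial cysteine enzyme, at 64.8, 65.8 and 64.8 CPM in shNC and 57.2, 58.7 and 63.8 CPM in PLEK2 shRNA (log2 fold change -0.12, SE 0.08). Its counts held shared reads in 4 of 6 libraries, seen as estimated counts that were not whole. In all, the PLEK2 shRNA libraries lay wholly above shNC for 0 synthetases, beside 4.08% of all genes, and wholly below for 3 (8.33%), beside 5.12% of all genes. Within same-numbered pairs, 7 synthetases were higher in PLEK2 shRNA in all 3 pairs (DARS, FARSB, KARS, LARS, NARS, IARS2 and MARS2, 19.4%), beside 19.9% of all genes. Another 10 were lower in all 3 pairs (CARS, FARSA, QARS, SARS, VARS, YARS, AARS2, CARS2, SARS2 and VARS2, 27.8%), beside 21.1% of all genes.

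On the higher side the values were smaller and overlapped. MARS2, the mitochondrial methionine enzyme, stood at 30.5, 34.9 and 31.4 CPM in shNC and at 34.8, 41.1 and 35.6 CPM in PLEK2 shRNA, a log2 fold change of 0.20 (SE 0.11). It was higher in all 3 same-numbered pairs, and the blocked interval was 0.06 to 0.35 with an adjusted p of 0.149 from edgeR. MARS, its cytosolic counterpart, stood at 192, 187 and 186 CPM in shNC and at 171, 189 and 191 CPM in PLEK2 shRNA (log2 fold change -0.04, SE 0.08). The MARS to MARS2 ratio in FPKM was 6.22 ± 0.50 in shNC and 5.28 ± 0.41 in PLEK2 shRNA (SD, n = 3), and the difference of the ratios was not tested.

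HARS2, the mitochondrial histidine enzyme, stood at 52.8, 52.4 and 57.1 CPM in shNC and at 61.5, 62.9 and 56.9 CPM in PLEK2 shRNA, a log2 fold change of 0.16 (SE 0.09). Replicate 3 was the pair without a difference, and the adjusted p with the block was 0.228 in edgeR. HARS, which starts 84 bases away on the other strand, stood at 136, 150 and 146 CPM in shNC and at 138, 145 and 147 CPM in PLEK2 shRNA (log2 fold change -0.01, SE 0.08). Their coding sequences are alike, and HARS had counts that were not whole in 6 libraries and HARS2 in 2. The sum of both genes was not whole in the 6 libraries either, so the fractions were not a split between these 2 genes alone. The source of the shared reads was not tested, and both counts are uncertain.

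NARS, the asparagine enzyme, stood at 202, 154 and 160 CPM in shNC and at 223, 170 and 179 CPM in PLEK2 shRNA. The replicate 1 library was the highest of both groups, and the log2 ratios within the pairs were 0.15, 0.15 and 0.17. The log2 fold change was 0.15 with an SE of 0.14 without the block and 0.05 with it (adjusted p = 0.147 in edgeR with the block). FARSA stood at 171, 215 and 208 CPM in shNC and at 159, 199 and 190 CPM in PLEK2 shRNA, with log2 ratios of -0.11, -0.11 and -0.13 within the pairs and an adjusted p of 0.246 in edgeR with the block. FARSB, whose protein pairs with that of FARSA, stood at 177, 141 and 153 CPM in shNC and at 177, 154 and 175 CPM in PLEK2 shRNA (log2 fold change 0.11, SE 0.10). So the 2 subunit genes of a single enzyme had estimates of opposite sign; neither passed at an adjusted p of 0.05, and only the blocked interval of FARSA (-0.23 to -0.01) left out 0. YARS, the tyrosine enzyme, stood at 235, 235 and 220 CPM in shNC and at 202, 224 and 215 CPM in PLEK2 shRNA, a log2 fold change of -0.11 (SE 0.08). YARS2 stood at 43.5, 43.1 and 41.8 CPM in shNC and at 39.4, 47.4 and 43.6 CPM in PLEK2 shRNA (log2 fold change 0.02, SE 0.10, counts not whole in 6 libraries). WARS, the cytosolic counterpart of WARS2, stood at 146, 140 and 137 CPM in shNC and at 139, 148 and 144 CPM in PLEK2 shRNA, and neither gene of the tryptophan pair moved beyond its spread (log2 fold changes 0.03 and -0.03).

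**Figure D3:**
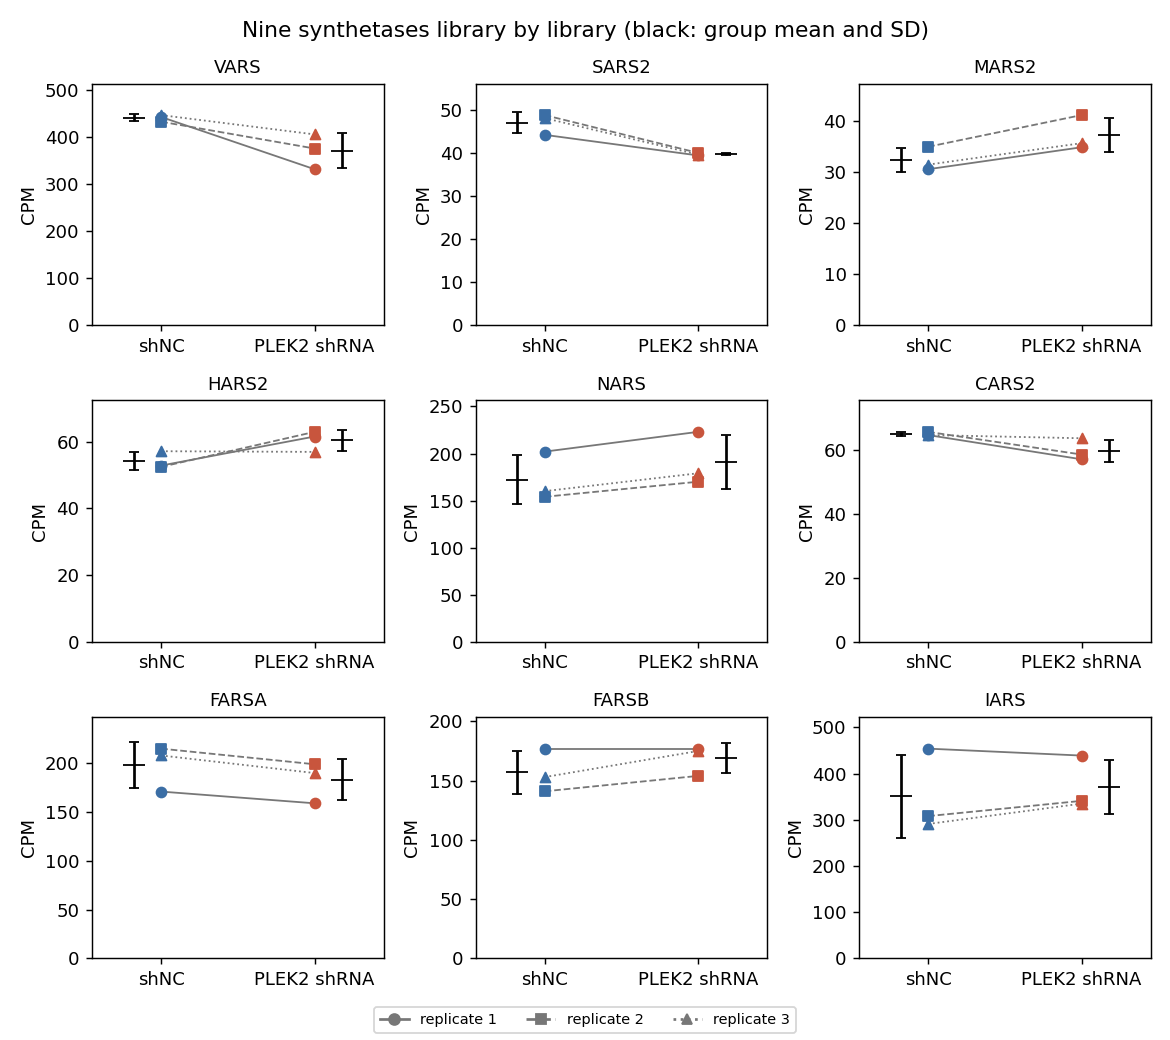
CPM in each library for 9 synthetases, shNC beside PLEK2 shRNA, with same-numbered libraries joined by a line and the group mean and SD in black. VARS, SARS2 and CARS2 lie lower in all 3 PLEK2 shRNA libraries, while NARS, FARSA and IARS are spread more by replicate number than by group.

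The remaining genes are given by their roles. In the multisynthetase complex the 8 enzymes had log2 fold changes of -0.07 to 0.09 with a median of 0.026. In either edgeR fit 0 of 8 had an unadjusted p under 0.05, beside 3.09% of all genes without the block and 18.3% with it. These were QARS (glutamine, -0.07), MARS (-0.04), EPRS (0.01), RARS (arginine, 0.01), LARS (leucine, 0.04), KARS (0.05), IARS (0.08) and DARS (0.09). The scaffold genes AIMP1 (0.03), AIMP2 (-0.11) and EEF1E1 (0.14) likewise had an unadjusted p above 0.05 in both fits. The 12 cytosolic genes outside the complex had a median of -0.041. They held all 4 cytosolic genes with an unadjusted p under 0.05 with the block (NARS, CARS, FARSA and VARS), beside 18.3% of all genes. The others outside it were AARS (alanine, -0.07), SARS (serine, -0.08), HARS (-0.01), TARS (threonine, -0.01), GARS (0.02), WARS (0.03), FARSB (0.11) and YARS (-0.11). No test compared the enzymes inside and outside the complex.

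Among the mitochondrial genes not yet given, EARS2 (glutamate, 0.00), TARS2 (0.00), PARS2 (proline, -0.02), WARS2 (-0.03) and LARS2 (0.05) lay nearest to 0. RARS2 (0.08), NARS2 (0.09) and IARS2 (0.12) had estimates above 0, and AARS2 (-0.08), FARS2 (-0.12) and VARS2 (-0.15) had estimates below 0. Standard errors without the block ran up to 0.15 for these genes, and all had an unadjusted p above 0.05 in both edgeR fits. The smallest p-values among them in edgeR with the block were those of VARS2 (-0.14, SE 0.07, unadjusted p = 0.0551) and IARS2 (0.12, SE 0.06, unadjusted p = 0.0702). By fold of the catalytic domain the 18 class I genes had a median log2 fold change of 0.005 and the 17 class II genes -0.008, with EPRS holding a domain of each class and left out.

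The same comparison was made for the genes that act with the synthetases. The 12 cytosolic synthetases listed as ATF4-induced had a median log2 fold change of 0.000 and the 8 others 0.001. Of 13 sensors and regulators of the amino acid response, 0 passed an adjusted p of 0.05 in either fit, with a median of 0.018. ATF4 itself stood at 260, 227 and 243 CPM in shNC and at 240, 239 and 228 CPM in PLEK2 shRNA (log2 fold change -0.05, SE 0.08), and EIF2AK4, the sensor of uncharged tRNA, differed by 0.05 (SE 0.09). The smallest p-values with the block in this list were those of PPP1R15B, a regulator of the phosphatase that reverses eIF2 phosphorylation (0.21, adjusted p = 0.0964 in edgeR), TRIB3 (-0.13) and CEBPB (-0.13). Of 21 tested genes of amino acid supply and other ATF4 targets, 0 passed as well, with a median of 0.026. With the block, 2 of these 21 were higher (beside 7.89% of all genes) and 5 lower (beside 10.4%) at an unadjusted p under 0.05. SLC38A2, a neutral amino acid transporter, was at 0.23 (adjusted p = 0.0535 in edgeR with the block). PHGDH, the first enzyme of serine synthesis, was at -0.29 with the block (adjusted p = 0.0666 in edgeR), and SLC3A2, the heavy chain of amino acid exchangers, at -0.18 (adjusted p = 0.104).

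The helpers of tRNA charging gave a median of 0.010 over 12 tested genes, with 0 called in either fit. Those with the smallest p-values with the block were DTD1 (0.22, adjusted p = 0.117 in edgeR with the block) and DTD2 (0.22), which remove D-amino acids from tRNAs, and MTFMT (-0.11), which formylates the mitochondrial initiator Met-tRNA. XPOT, the exporter of tRNAs from the nucleus, differed by 0.00 (SE 0.12). The 6 factors that bring charged tRNA to the ribosome had a median of -0.026. The smallest p-values were those of EEF1D (-0.21), the exchange factor subunit that works with EEF1B2, at an adjusted p of 0.0834 in edgeR with the block, and of the mitochondrial factors TUFM (-0.10) and TSFM (0.11).

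The libraries of replicate 1 stood apart from the others for many synthetases. For that reason replicate 1 was compared with the mean of replicates 2 and 3, keeping the group as a term; this comparison was chosen after seeing the data, and the labels do not say what a replicate number marks. In edgeR's test 12 of 36 synthetases had an adjusted p under 0.05. The 8 higher in replicate 1 were DARS, EPRS, FARSB, IARS, KARS, NARS, TARS and IARS2 (22.2%), beside 19.4% of all genes. The 4 lower were CARS, FARSA, SARS and VARS2 (11.1%), beside 17.3% of all genes. The replicate 1 libraries lay wholly above the other 4 for 13 synthetases (36.1%), beside 23.4% of all genes, and wholly below for 7 (19.4%), beside 23.9% of all genes. The difference by replicate number was larger in size than that by shRNA for 26 of 36 synthetases, as for 72.4% of all genes.

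IARS had the largest of these differences. It stood at 454, 308 and 291 CPM in shNC and at 439, 341 and 335 CPM in PLEK2 shRNA, so both replicate 1 libraries lay far above the other 4. The log2 difference of replicate 1 was 0.49 (SE 0.06, adjusted p = 0.000137 in edgeR). IARS2 followed, at 173, 126 and 124 CPM in shNC and 174, 132 and 152 CPM in PLEK2 shRNA (0.38, SE 0.07, edgeR adjusted p = 0.000859), and then NARS (0.36, SE 0.05, adjusted p = 0.000385). The isoleucine enzymes of both compartments thus led the higher side, and their ratio stayed between 1.69 and 2.01. On the lower side VARS2, the mitochondrial valine enzyme, stood at 37.1, 49.3 and 50.5 CPM in shNC and at 35.7, 46.3 and 41.6 CPM in PLEK2 shRNA (-0.36, SE 0.07, edgeR adjusted p = 0.00245). FARSA followed at -0.30 (SE 0.05, edgeR adjusted p = 0.00131), then CARS at -0.27 (adjusted p = 0.00477).

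**Figure D4:**
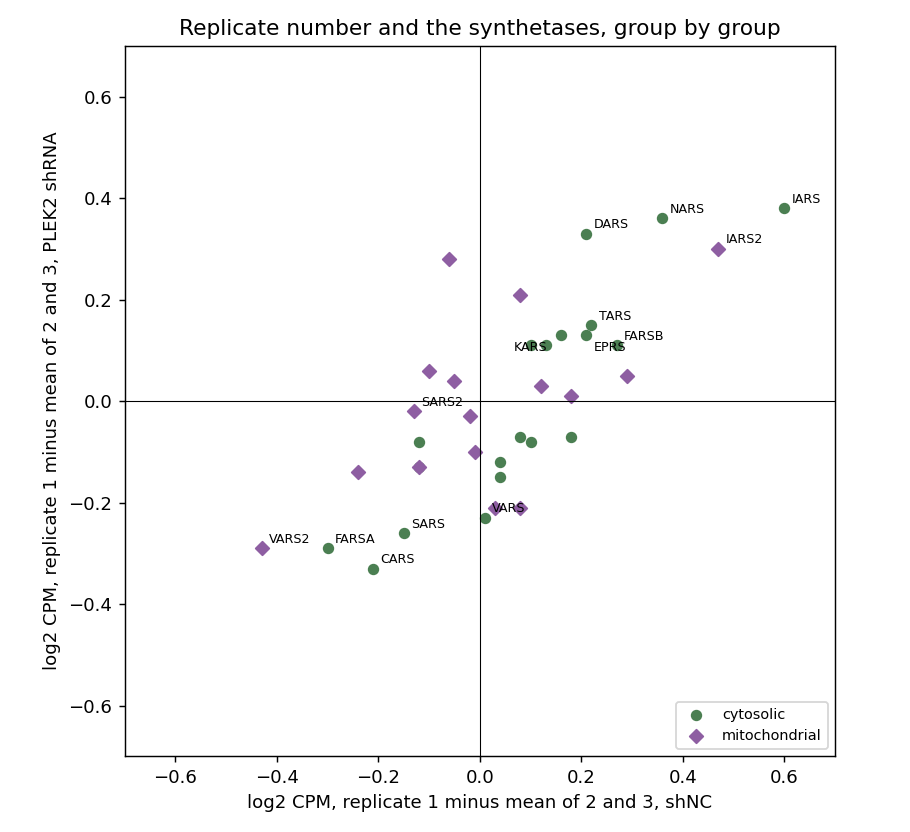
Log2 difference of replicate 1 from the mean of replicates 2 and 3 within shNC (x axis) and within PLEK2 shRNA (y axis), a point for each of the 36 synthetases. In 25 of 36 genes the sign is the same in both groups, with IARS at 0.60 and 0.38 and VARS2 at -0.43 and -0.29.

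FARSA and FARSB went opposite ways with the replicate number, although their proteins are subunits of a single enzyme. The FARSA to FARSB ratio in FPKM was 1.12, 1.77 and 1.55 in shNC and 1.04, 1.48 and 1.24 in PLEK2 shRNA. Its mean was 1.08 in the 2 replicate 1 libraries and 1.51 in the other 4. The ATF4-listed genes were also split, with 4 of 12 higher in replicate 1 (EPRS, IARS, NARS and TARS), beside 19.4% of all genes. Another 2 were lower (CARS and SARS), beside 17.3% of all genes. The stress regulators ATF3 (0.93, SE 0.08) and DDIT3 (0.61, SE 0.14) and the ATF4 target CHAC1 (1.03, SE 0.18), named after their values were seen, were higher in replicate 1 too, with adjusted p-values of 1.32e-05, 0.0057 and 0.00106 in edgeR. ATF4 itself was at 0.09 (SE 0.06, adjusted p = 0.231 in edgeR). In the 13 regulators 4 were higher and 1 lower (CEBPB, -0.31) in replicate 1 at an adjusted p under 0.05. In the 21 supply genes 7 were higher and 6 lower, among the lower SLC1A5 (-0.35) and SLC7A5 (-0.29). Over all genes the shares were 19.4% higher and 17.3% lower.

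The GC content of the transcripts moved with both comparisons. It ran from 38.1% (DARS) to 61.7% (VARS) over the 36 synthetases, with a median of 49.9%, taken from the Ensembl canonical transcript of each gene. Across the 36 genes, which share libraries and are not independent, the Pearson correlation of GC content with the log2 fold change of PLEK2 shRNA was -0.75, and with the difference of replicate 1 it was -0.77. Over 12685 tested genes the same values were -0.41 and -0.65. VARS and SARS2, the genes with the smallest p-values under knockdown, were also the first and second of the 36 by GC content, at 61.7% and 61.4%. The 8 genes higher in replicate 1 had 38.1% to 47.3% GC and the 4 lower ones 52.7% to 61.3%.

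A fit with a linear GC term for each library, added after seeing the data, gave the following values. With the block and this term VARS was at -0.15 (SE 0.06, adjusted p = 0.466 in edgeR) and SARS2 at -0.14 (adjusted p = 0.489), while MARS2 stayed at 0.20 (adjusted p = 0.35) and HARS2 at 0.17 (adjusted p = 0.436). For 32 of 36 synthetases the log2 fold change was then within 0.1 of 0. The median size of the change was 0.05, beside 0.08 in the fit without block or term. With the term the Pearson correlation of GC content with the log2 fold change was -0.34, and with the difference of replicate 1 it was 0.02. Of the 12 genes called between replicate numbers 2 were called with the term, IARS (0.34, edgeR adjusted p = 0.00734) and IARS2 (0.24, adjusted p = 0.0378), beside 10.4% of all genes. FARSA and FARSB came to -0.04 and -0.03, so their split by replicate number was no longer seen. The part of GC content in these results was not otherwise tested.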

How the data were processed

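RNA-seq of HCT116 cells was analysed in 3 shNC and 3 PLEK2 shRNA libraries, grouped by the treatment label, with replicate numbers from the sample titles. The authors deposited estimated counts per gene, not all whole, and length-scaled values beside them; the header names no unit for the latter, but they are FPKM values as deposited, since the library totals they imply were 99.7% to 100.4% of the count totals. The submitters' processing notes list HISAT2 2.0.4, Bowtie2 2.2.5, RSEM 1.2.12, DESeq2 1.4.5 and the build GRCm38.p6, a mouse build, although the rows carry human symbols; which of these made the human values is not given in the sources used here. An estimated count that is not whole shows reads shared between genes, so such genes are uncertain. The authors' group means were not used.

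Counts were rounded to whole numbers, filtered with filterByExpr, scaled by TMM and tested with edgeR 4.0.16 (quasi-likelihood test, R 4.3.3) over 12959 genes, with Benjamini-Hochberg adjustment over all of them. The replicate number as a block was an alternative. Deviations of same-numbered libraries from their group means correlated at 0.736, 0.558 and 0.554 over 10161 genes, and those of different numbers at -0.629 to 0.358, so by these data the numbers pair the libraries; the labels do not say why. Other alternatives were DESeq2 1.42.0, limma 3.58.1 on log2(FPKM + 1), other scalings and filters, and leaving out libraries. The comparison of replicate 1 with replicates 2 and 3, the block with DESeq2's size factors and the GC term (GENCODE 44 transcripts, 97.9% of tested genes matched) were chosen after seeing the data. The scripts were tested on simulated data.

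Every synthetase is named. Values in every library are given for the 6 with the smallest p in each fit, the 3 highest and 3 lowest by FPKM, and partners that differ in sign; in each related list the 3 smallest blocked p-values are named, and other genes were added after their values were seen. The members and lists were chosen with earlier results of these data known. Depth was 14377532 to 15602732 estimated counts per library.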

Additional observations from a re-analysis of the deposited data

How the results depend on the processing

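The replicate numbers pair the libraries, and the fit with the replicate block raised the synthetases with an unadjusted p under 0.05 from 2 to 7 of 36, beside 18.3% of all genes; the count was 8 with the block and library totals (19.9% of all genes), 6 with the block and DESeq2's size factors (18.5%), 4 with the block and a GC term (9.66%) and 3 with the block in DESeq2's Wald test (6.73%). Leaving out replicate 1, 2 or 3 of both groups under the block gave 11, 3 or 5 (19.3%, 11.7% and 14.4% of all genes). Without the block, leaving out a single library gave 0 (without shNC replicate 3) to 5 (without shNC replicate 1). The shares of all genes in these 2 settings were 2.3% and 8.66%. The count at adjusted p under 0.05 was 0, with 2 exceptions under the block. These were without replicate 1 (2, IARS and SARS2, beside 4.06% of all genes) and without replicate 3 (1, VARS, beside 2.29%). The median log2 fold change over the mitochondrial genes was 0.034 with library totals and 0.033 with the block added, and over single libraries left out it ran from -0.006 to 0.034, beside -0.033 to 0.065 over the cytosolic genes. The log2 fold change of PLEK2 passed the threshold in DESeq2's Wald test (-1.53) and under the block (-1.57), with the block and library totals (-1.54), size factors (-1.56), a GC term (-1.53) or DESeq2 (-1.60), and with the block without replicate 1 (-1.21), 2 (-1.78) or 3 (-1.74). Over single libraries left out it ran from -1.74 to -1.26, passing only without PLEK2 shRNA replicate 1 (-1.26, adjusted p = 0.0106 in edgeR). The sign turned for GARS under the block without replicate 2 (-0.02; single libraries left out -0.02 to 0.09) and for WARS2 without replicate 3 (0.05; -0.10 to 0.05). The count between replicate numbers was 12 with other scalings and 2 with the GC term. Apart from the settings named, the cause of these shifts was not tested.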

Other observations

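The table also held TARSL2, a further cytosolic threonine enzyme, which is not on the list of 36. TARSL2 stood at 17.7, 22.0 and 19.5 CPM in shNC and at 21.4, 22.7 and 22.2 CPM in PLEK2 shRNA (log2 fold change 0.16, SE 0.11), and the groups overlapped.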
